A study of Mus musculus with 12 samples.

Results

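The comparison described here is XY against XX gonadal cells of the mouse at E11.5 (age in embryonic days), in 2 XY and 2 XX libraries of 12 in the series. All 4 were made from NR5A1(+) cells of E11.5 fetal gonads with the genotype Nr5a1-hCD271, in which the human surface protein CD271 marks cells that use the Nr5a1 gene. Their titles call them WT and name no treatment. The labels put the text on culture and on the iron chelator Dfo on these samples too, so how the E11.5 gonads were collected is not settled by the labels. A gene was a member when it had at least 1 TPM (a share of all transcripts, corrected for their length) in at least 2 of the 4 libraries. This held for 14344 of the 24411 symbols in the files, of which 13785 were autosomal, 508 X-linked and 13 Y-linked, with 38 that had no place on a chromosome. At the limit, 1240 members reached 1 TPM in exactly 2 libraries, and 2795 symbols reached it in 1 library and were left out. The other 8 libraries came from E10.8 gonads cultured for 19.2 h. These were 3 control XY, 2 control XX and 3 XY libraries with 150 µM Dfo, of the same genotype and cell gate.

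Before sex is determined, the gonad is a single primordium that can become a testis or an ovary. In XY embryos the Y-linked factor SRY raises Sox9 in supporting cells, and SOX9 with FGF9 drives Sertoli cell fate. In XX embryos WNT4, RSPO1 and β-catenin, and then FOXL2, drive pregranulosa fate, with follistatin (Fst) and BMP2 among the genes of that path. E11.5 is the time at which Sry is active and the paths begin to part. Immediate early genes, such as Fos, Jun and Egr1, encode short-lived factors that cells switch on within minutes of a growth factor or of stress, tissue handling included.

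Differences were tested with limma on log2(TPM + 1), in 1 fit over all 12 libraries that share an estimate of the spread, and p-values were adjusted by Benjamini-Hochberg over 16133 genes. Each difference below is XY minus XX on that scale, ± the limma standard error, and genes are said to be called where that p, so adjusted, lay below 0.05. On that rule 370 genes were called, all members, which is 2.29% of the genes tested. Of these 176 (1.09%) were higher in XY and 194 (1.2%) were lower. Fitted on the 4 E11.5 libraries alone, limma called 0 genes, with a lowest adjusted p of 0.149 and 2216 genes at an unadjusted p below 0.05, so each call below rests on a spread shared with cultured gonads. An exact two-sided permutation test of 2 against 2 libraries cannot go below p = 0.333. Nothing in the labels says that replicates came from separate embryos, so p-values measure only the spread between these samples, which may be technical. Depth is unknown, since TPM does not keep it.

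The libraries were not evenly spaced. Over 3051 genes that averaged 50 TPM or more, the median absolute log2 difference was 0.13 between the XY replicates and 0.18 between the XX replicates. XX replicate 2 lay at 0.16 and 0.15 from the XY libraries, closer than to XX replicate 1, which lay at 0.25 and 0.26 from them. XY replicate 2 listed 16001 symbols at 1 TPM or more, beside 14218 in XY replicate 1 and 13363 and 13287 in XX. The RNase P RNA Rpph1 took 12.2% and 12.02% of TPM in XY and 8.57% and 11.47% in XX. Cultured control XY replicates 1 and 2 differed by 0.06 and held 330 identical values above 0, beside 0.19 and 0.20 and 34 and 28 values against replicate 3. Dfo replicates 1 and 2 differed by 0.07 and held 111 identical values. Whether each pair is 2 separate samples cannot be tested on TPM. They count as separate libraries here, and averaging each pair left 88 of the 370 calls.

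Of the 67 genes called at E11.5 that the naming rule picks, 39 were still called with that averaging. The calls lost were those of Foxl2, Cbln4, Kitl, Bmp2, Podxl, Kdm3a, Klf6, Hes1, Crabp1, Por, Fdx1, Pfkm, Hk1, Slc7a11, Sesn1, Lss, Pttg1, Uba1, Kdm6a, Krt19, Spp1, Gpr15, Ifna1, Sst, Ivl, Man2c1os, Nrn1l and Rhox9. Where leaving out 1 of the 9 E11.5 and control libraries ended a call, the libraries are named with the gene.

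Markers of other cells were present in all 4 libraries and some moved with the sex. Of 13 tested erythroid markers 0 were called and 12 lay above 0, with summed levels of 3390 and 2618 TPM in XY and 1864 and 1339 TPM in XX. Of 15 mesonephric epithelium markers 14 lay above 0 and 1 was called, with sums of 488 and 428 TPM in XY and 423 and 389 TPM in XX. The called gene was Spp1, at 26.0 and 33.0 TPM in XY and 10.97 and 2.29 TPM in XX, and it lost its call without XX replicate 2 or either XY library (highest limma adjusted p = 0.102, without XY replicate 2). Of 18 endothelial markers 0 were called and 17 lay below 0, with sums of 431 and 429 TPM in XY and 640 and 554 TPM in XX. Germ cell markers (0 of 17 called), macrophage markers (0 of 16), mesenchyme markers (0 of 19) and neural markers (0 of 17) made no call. The germ cell list summed to 565 and 465 TPM in XY and 638 and 595 TPM in XX. Of its genes, Ddx4 and Dazl were at or below 1.93 TPM, while Dppa5a reached 19.5, Utf1 12.3, Dppa3 10.45 and Pou5f1 8.42 TPM. Other genes of the list made up most of the sum. Of 11 coelomic epithelium markers 1 was called, the keratin Krt19, with 12.5 and 11.6 TPM in XY and 22.6 and 25.3 TPM in XX. It lost its call without any 1 of the 4 E11.5 libraries (highest limma adjusted p = 0.0878, without XX replicate 1). No erythroid, mesonephric or endothelial marker tested was at 0 in all 4 libraries. Their part in the differences below was not tested. In bulk libraries, fewer cells of a type and less RNA per cell cannot be told apart.

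The labels held at the sex chromosomes. Sry (chrY:2662471-2663658, mm10, minus strand), the switch gene of testis development, had 53.4 and 42.4 TPM in the XY libraries and was listed at 0 in both XX libraries (limma adjusted p = 1.58e-05). The broadly expressed Y-linked genes Ddx3y, Eif2s3y, Kdm5d and Uty stood between 18.6 and 40.0 TPM in XY and at or below 0.13 TPM in XX. Their call and that of Sry held with each E11.5 or control library left out. Xist (chrX:103460366-103483254), the RNA that silences an X chromosome in XX cells, had 124 and 149 TPM in XX and 0.16 and 0.90 TPM in XY. Its difference of -6.53 ± 0.95 had a limma adjusted p of 0.0059, and the call ended without XX replicate 1. That standard error rests on the spread shared by all 12 libraries. In the Dfo XY libraries among them, Xist was at 13.6, 24.6 and 0.28 TPM.

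Sox9 had the lowest adjusted p among the autosomal genes of the testis list. It encodes the factor that starts Sertoli cell differentiation, and it lies at chr11:112782224-112787760 on the plus strand. It had 66.2 and 75.8 TPM in XY and 19.75 and 18.8 TPM in XX, so the XX level was well above 0 and the groups stood apart. The mean was 3.68 times higher in XY, a difference of 1.82 ± 0.18 (limma adjusted p = 0.000257). Its call held with every E11.5 or control library left out, with a highest adjusted p of 0.00631.

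Cbln4 and Fgf9 lay on the same side at lower levels. Cbln4 (chr2:172036233-172043466), a secreted protein of the fetal testis, had 6.13 and 6.52 TPM in XY and 1.49 and 0.49 TPM in XX, a difference of 1.93 ± 0.40 (limma adjusted p = 0.0315). That call ended without any 1 of the 4 E11.5 libraries or of cultured control XY replicates 1 and 2, with a highest adjusted p of 0.116 without XX replicate 2. Fgf9 (chr14:58070547-58112720), the growth factor that keeps Sox9 active, had 5.97 and 5.86 TPM in XY and 1.27 and 2.58 TPM in XX. The groups did not overlap, but the difference of 1.28 ± 0.34 missed the threshold (limma adjusted p = 0.0627), and passed it only without cultured control XY replicate 3 (0.0451) and without the variance trend (0.0420).

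Genes of the path that are known to rise later were low, and Sox8, Amh and Ptgds overlapped between the sexes. Sox8, a close relative of Sox9, had 2.11 and 3.82 TPM in XY and 2.44 and 3.64 TPM in XX. Amh, the hormone that removes the Müllerian duct, had 1.22 and 0 TPM in XY and 0 and 0.29 TPM in XX. Ptgds, the prostaglandin D synthase of the testis, was at 0 in 1 library of each sex and at 1.54 and 3.52 TPM in the others. Dmrt1, a factor of both germ and supporting cells, had 13.7 and 16.2 TPM in XY and 19.7 and 19.2 TPM in XX, a difference of -0.37 ± 0.28 (limma adjusted p = 0.488). Across the testis list 3 of 28 tested genes were called higher (Sry, Sox9 and Cbln4) and 0 lower. The call of Sry, which is Y-linked, follows from the sex of the libraries. Of all genes tested, 1.09% were called higher and 1.2% lower. The list's median difference was 0.30, beside 0.00 over all genes tested. Under quantile normalization the list's median was 0.12.

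The FGF and ERK feedback list made no call among 19 tested genes, with a median of 0.26 and 13 genes at or above 0. Besides Fgf9 it holds the receptors, the Sprouty and Spred inhibitors and the ETS factors that FGF raises. The ETS factor Etv5 had 25.9 and 30.55 TPM in XY and 18.7 and 18.5 TPM in XX, which did not overlap, with a difference of 0.57 ± 0.23 (limma adjusted p = 0.200). The receptor Fgfr2 had 63.1 and 69.9 TPM in XY and 94.6 and 76.05 TPM in XX, a difference of -0.35 ± 0.18 (limma adjusted p = 0.318).

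Of 19 tested genes known to act upstream of Sry, 13 lay below 0, with a median difference of -0.17. Of the 19, 1 was called lower in XY and 0 higher, beside 1.2% and 1.09% of all genes tested. The called gene was Kdm3a (chr6:71588972-71632990), the histone H3K9 demethylase that opens the Sry locus and needs iron. It had 93.8 and 86.8 TPM in XY and 147.5 and 134 TPM in XX, a difference of -0.64 ± 0.12 (limma adjusted p = 0.0256). That call ended without any 1 of the 4 E11.5 libraries, with a highest adjusted p of 0.154 without XX replicate 1. Gadd45g, which feeds the p38 kinase path to Sry, had 143 and 117 TPM in XY and 170 and 175 TPM in XX, a difference of -0.41 ± 0.15 (limma adjusted p = 0.159). Map3k4, the kinase it binds, had 49.6 and 47.8 TPM in XY and 53.1 and 45.1 TPM in XX, which overlapped. The orphan receptor gene Nr0b1, listed here among the testis genes, had 27.6 and 29.6 TPM in XY and 31.1 and 24.15 TPM in XX, which overlapped too.

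**Figure D1:**
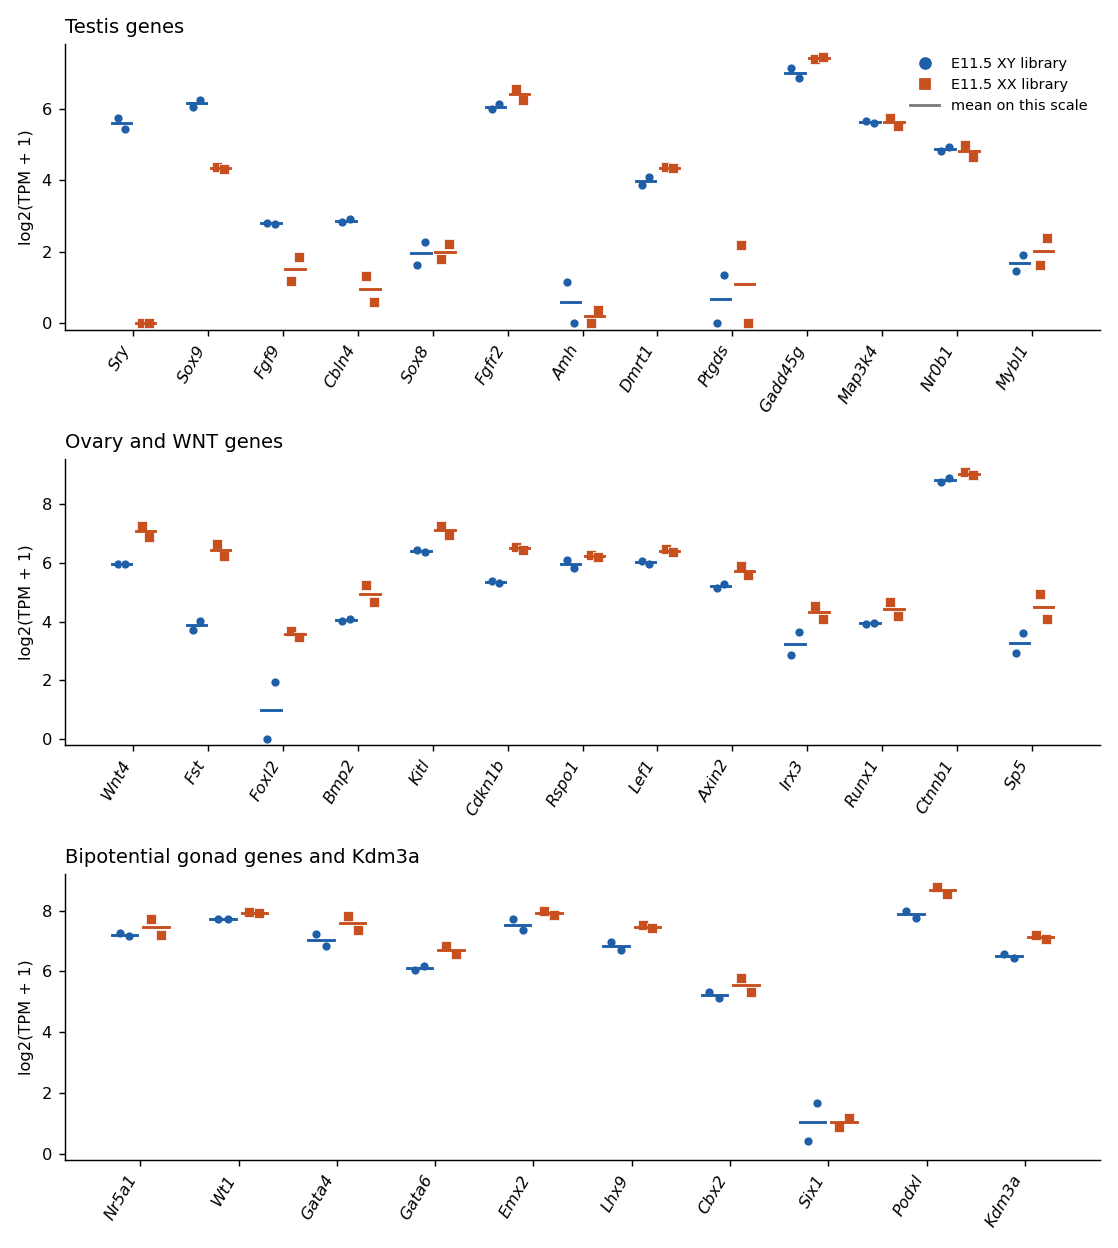
Level of each gene in the 4 E11.5 libraries, as log2(TPM + 1), for testis genes (top), ovary and WNT genes (middle) and bipotential gonad genes with Kdm3a (bottom). Circles are XY libraries, squares XX libraries and short lines the mean on this scale. Sry, Sox9, Fgf9 and Cbln4 stand apart with XY above, and Wnt4, Fst and Cdkn1b stand apart with XX above, while most bipotential genes differ by less than 1 unit.

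On the ovarian side 6 of 28 tested genes were called lower in XY and 0 higher, beside 1.2% and 1.09% of all genes tested. The median difference was -0.38, with 23 genes below 0. The list sums to 1073 and 1121 TPM in XY and 1677 and 1448 TPM in XX. Wnt4 (chr4:137277489-137299726), the WNT ligand of ovary fate, had 62.2 and 61.6 TPM in XY and 151 and 118.5 TPM in XX. The groups stood apart by -1.10 ± 0.14 (limma adjusted p = 0.00217), a mean 2.18 times higher in XX. Its call held with each E11.5 or control library left out, with a highest adjusted p of 0.0303 without XX replicate 1.

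Fst had the lowest adjusted p of the ovary list. It encodes follistatin, which binds and blocks activin, and lies at chr13:114452290-114458951. It had 12.1 and 15.3 TPM in XY and 98.0 and 74.75 TPM in XX. The XX mean was 6.29 times higher, a difference of -2.56 ± 0.26 (limma adjusted p = 0.000406), and no E11.5 or control library ended the call when left out.

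Cdkn1b, the cell cycle inhibitor p27, was the third gene of the list with that stability. It had 40.8 and 38.7 TPM in XY and 92.75 and 85.7 TPM in XX, a difference of -1.15 ± 0.13 (limma adjusted p = 0.000767). The remaining 3 calls depended on single libraries.

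Foxl2 (chr9:98955288-98958543), the forkhead factor of granulosa cells, was listed at 0 in XY replicate 1 and had 2.89 TPM in XY replicate 2, beside 11.9 and 10.1 TPM in XX. Its difference was -2.60 ± 0.55 (limma adjusted p = 0.0330). The call ended without either XX library, without XY replicate 1 and without cultured control XY replicate 1 or 2, with a highest adjusted p of 0.185 without XX replicate 1. Kitl, the ligand of the receptor KIT on germ cells, had 85.6 and 81.95 TPM in XY and 154 and 124 TPM in XX, a difference of -0.72 ± 0.13 (limma adjusted p = 0.0208). This call ended without XX replicate 1 (0.147) and without either XY library. Bmp2 had 15.1 and 15.99 TPM in XY and 36.8 and 24.4 TPM in XX, a difference of -0.91 ± 0.20 (limma adjusted p = 0.0360). Leaving out any E11.5 or control library but XX replicate 2 and cultured control XY replicate 3 ended it, with a highest adjusted p of 0.219 without XX replicate 1.

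The other 22 genes of the list did not pass the threshold, and 17 of them lay below 0. Rspo1, the secreted amplifier of WNT signals, had 67.5 and 55.8 TPM in XY and 76.0 and 72.2 TPM in XX, a difference of -0.27 ± 0.14 (limma adjusted p = 0.322). The WNT target Axin2 had 34.6 and 37.6 TPM in XY and 58.1 and 46.7 TPM in XX, a difference of -0.52 ± 0.15 (limma adjusted p = 0.0759). Lef1, the factor that carries β-catenin to DNA, had a difference of -0.40 ± 0.12 (limma adjusted p = 0.0852). The targets Sp5 and Irx3 differed by -1.23 ± 0.31 and -1.08 ± 0.33 (limma adjusted p = 0.0579 and 0.0939). In each of these genes both XX libraries stood above both XY libraries. For such an order of 2 against 2 libraries the exact two-sided permutation test gives p = 0.333, as low as it can go. Ctnnb1, which encodes β-catenin, had 434.5 and 479 TPM in XY and 543 and 504 TPM in XX, a difference of -0.20 ± 0.10 (limma adjusted p = 0.311). Other WNT genes were near level or above 0, with Tcf7 at -0.01, Znrf3 at -0.16, Nkd1 at -0.13, Notum at -0.12, Rnf43 at 0.19 and Lgr5 at 0.30. Endothelial markers summed to less in XY as well, as given above.

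Genes of the bipotential gonad gave 1 call of 20 tested, lower in XY, beside 1.2% of all genes tested called lower. Nr5a1 itself, the gene of the cell gate, had 152 and 141 TPM in XY and 211 and 145 TPM in XX, a difference of -0.26 ± 0.17 (limma adjusted p = 0.420). The groups overlapped, since XX replicate 2 lay between the XY libraries. Wt1, which the gonad needs to form, had 213 and 211 TPM in XY and 246 and 241 TPM in XX, a difference of -0.20 ± 0.09 (limma adjusted p = 0.257). Gata4, Lhx9 and Emx2, factors of the early gonad, differed by -0.57 ± 0.19, -0.64 ± 0.19 and -0.38 ± 0.19 (limma adjusted p = 0.123, 0.0828 and 0.285). Gata6, a partner of Gata4, had 64.7 and 72.3 TPM in XY and 112 and 93.8 TPM in XX, a difference of -0.58 ± 0.14 (limma adjusted p = 0.0503). Without cultured control XY replicate 3 it passed the threshold (0.0351), and so did Lhx9 (0.0304). Gata6 also passed without a filter on low values, with the filter set on the E11.5 libraries and without the 50 most abundant genes. The called gene was Podxl, a sialomucin of epithelial surfaces, with 256 and 217 TPM in XY and 441 and 372 TPM in XX and a difference of -0.78 ± 0.15 (limma adjusted p = 0.0274). Its call ended without any 1 of the 4 E11.5 libraries, with a highest adjusted p of 0.184 without XX replicate 1. The median over the list was -0.15.

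Immediate early genes had more calls than any other of the 29 lists. Of 27 tested, 25 of them members, 18 were called lower in XY and 0 higher, with a median difference of -1.49 and 25 genes below 0. Beside this, 1.2% of all genes tested were called lower in XY. The 27 genes summed to 875 and 871 TPM in the XY libraries and to 2483 and 3399 TPM in the XX libraries, so XX replicate 2, which lay closer to XY over the genes that averaged 50 TPM or more, was here the farther of the XX libraries.

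Fos (chr12:85473890-85477273), which encodes a subunit of the AP-1 factor, had 42.1 and 38.3 TPM in XY and 335.5 and 552 TPM in XX. The XX mean was 11.03 times higher, a difference of -3.39 ± 0.19 (limma adjusted p = 1.4e-06). Its paralog Fosb had 25.7 and 22.4 TPM in XY and 172 and 196 TPM in XX, a difference of -2.89 ± 0.15 (limma adjusted p = 1.23e-06). In both genes the XX libraries stood far above the XY libraries.

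The JUN subunits of AP-1 were lower in XY by less. Jun had 208 and 197 TPM in XY and 475 and 694 TPM in XX, a difference of -1.50 ± 0.16 (limma adjusted p = 0.000452). Junb had 9.97 and 14.8 TPM in XY and 52.8 and 59.0 TPM in XX, a difference of -2.11 ± 0.22 (limma adjusted p = 0.000464). Jund had 127 and 110.2 TPM in XY and 245 and 253 TPM in XX, a difference of -1.06 ± 0.19 (limma adjusted p = 0.0191). Of the 3 genes only Jund lost its call when a library was left out, which happened without either XX library and without XY replicate 2, with a highest adjusted p of 0.115 without XX replicate 1.

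Zinc finger and nuclear receptor genes of the same class followed. Egr1 had 76.65 and 83.4 TPM in XY and 233 and 328 TPM in XX, a difference of -1.78 ± 0.22 (limma adjusted p = 0.00198). Egr2 differed by -1.84 ± 0.28, Klf4 by -2.65 ± 0.31, Klf2 by -2.28 ± 0.34 and Klf6 by -1.21 ± 0.22. The orphan receptor Nr4a1 had 5.45 and 5.89 TPM in XY and 33.2 and 58.5 TPM in XX, a difference of -2.76 ± 0.35 (limma adjusted p = 0.00227). Klf2 lost its call without XX replicate 2 (limma adjusted p = 0.0540), and Klf6 lost it without XX replicate 2 (0.0867) or XY replicate 1.

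Negative regulators of signalling that are induced with these factors were also lower in XY. Socs3, an inhibitor of cytokine receptors, had 11.6 and 9.37 TPM in XY and 31.8 and 37.75 TPM in XX, a difference of -1.64 ± 0.18 (limma adjusted p = 0.000563). Dusp1, a MAP kinase phosphatase, had 23.35 and 26.5 TPM in XY and 70.4 and 119 TPM in XX, a difference of -1.84 ± 0.31 (limma adjusted p = 0.0137). Zfp36, which speeds the decay of mRNAs with AU-rich elements, had 24.3 and 14.4 TPM in XY and 49.6 and 79.25 TPM in XX, a difference of -1.69 ± 0.27 (limma adjusted p = 0.00993). Dusp1 lost its call without XX replicate 2 (limma adjusted p = 0.0675) and without either XY library. Zfp36 lost it without XX replicate 2 (0.0602) and without XY replicate 2.

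The remaining called genes of the class were Btg2, Cyr61, Ier2 and Atf3. Btg2, a brake on proliferation, had 23.2 and 23.3 TPM in XY and 50.9 and 89.1 TPM in XX, a difference of -1.49 ± 0.20 (limma adjusted p = 0.00354). Cyr61, a matrix protein raised by YAP and serum, had 119 and 115.5 TPM in XY and 315 and 342 TPM in XX, a difference of -1.48 ± 0.13 (limma adjusted p = 0.000109). Ier2 differed by -1.42 ± 0.20 and the stress factor Atf3 by -1.39 ± 0.24. Atf3 lost its call without either XX library (highest limma adjusted p = 0.0712, without XX replicate 2) or XY replicate 1. Of the 9 genes not called, Ier3 at 0.49 ± 0.35 and Nr4a3 at 0.09 ± 0.66 lay above 0. Egr3 had -1.62 ± 0.42 (limma adjusted p = 0.0607) and Ier5 -0.91 ± 0.28 (0.0974), and Egr4, Fosl1, Nr4a2 and Fosl2 had -0.93, -0.73, -0.48 and -0.30. Ctgf, a matrix protein like Cyr61, had 19.2 and 13.8 TPM in XY and 20.3 and 15.7 TPM in XX, which overlapped.

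**Figure D2:**
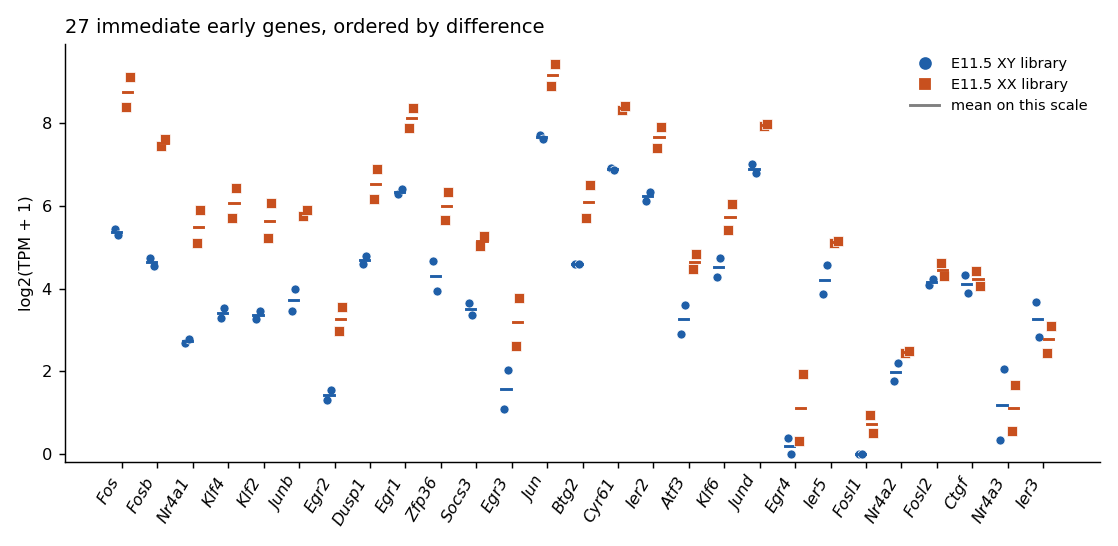
Level of 27 immediate early genes in the 4 E11.5 libraries, as log2(TPM + 1), ordered by the difference between the sexes. Circles are XY libraries, squares XX libraries and short lines the mean on this scale. From Fos to Jund both XX libraries stand above both XY libraries in every gene, and at the right end the libraries mix.

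The promoters of called members are shown where a motif that immediate early or sex-determining factors read was found, since 18 genes of 1 class moved together. RefSeq (GRCm38.p6) gave a promoter for 15 of the 18 called immediate early genes, 4 of the 6 ovary genes and 2 of the 3 testis genes. In the 250 bases before each start site, both strands were searched for the SRY/SOX core AACAAT, the TCF/LEF core ATCAAAG, the AP-1 site TGANTCA, the cAMP response element TGACGTCA and the serum response element (CArG box). These occur in 9.42%, 3.21%, 6.75%, 1.55% and 1.47% of 32851 promoters of the same length. No 2 of these motifs overlap in the promoters shown. The cAMP response element stood in Btg2 and Dusp1, and the CArG box in Egr2 and Zfp36. The other 3 motifs were in none of the 15, and none of the 5 was in the 4 ovary promoters. Capitals mark the match, in sequences written 5′ to 3′ on the gene's strand.
Zfp36, chr7:28379229-28379478, minus strand, CArG box 58 to 49 bases before the start site: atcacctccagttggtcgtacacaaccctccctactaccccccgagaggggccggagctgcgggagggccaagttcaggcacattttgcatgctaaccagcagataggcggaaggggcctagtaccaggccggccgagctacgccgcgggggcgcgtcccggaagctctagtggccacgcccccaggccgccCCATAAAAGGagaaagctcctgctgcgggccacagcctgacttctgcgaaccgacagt
Egr2, chr10:67537619-67537868, plus strand, 1 of several start sites, CArG box 72 to 63 bases before it: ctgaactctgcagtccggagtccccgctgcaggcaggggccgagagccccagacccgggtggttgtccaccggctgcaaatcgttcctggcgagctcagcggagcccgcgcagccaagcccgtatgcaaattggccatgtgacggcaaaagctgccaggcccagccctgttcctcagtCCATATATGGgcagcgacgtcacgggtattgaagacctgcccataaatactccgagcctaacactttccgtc
Dusp1, chr17:26508473-26508722, minus strand, cAMP response element 143 to 136 bases before the start site: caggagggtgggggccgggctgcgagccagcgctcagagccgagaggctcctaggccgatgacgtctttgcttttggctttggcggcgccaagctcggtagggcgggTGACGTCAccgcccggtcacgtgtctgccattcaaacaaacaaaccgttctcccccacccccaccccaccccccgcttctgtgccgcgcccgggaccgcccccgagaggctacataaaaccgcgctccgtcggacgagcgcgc
Btg2, chr1:134079156-134079405, minus strand, cAMP response element 166 to 159 bases before the start site: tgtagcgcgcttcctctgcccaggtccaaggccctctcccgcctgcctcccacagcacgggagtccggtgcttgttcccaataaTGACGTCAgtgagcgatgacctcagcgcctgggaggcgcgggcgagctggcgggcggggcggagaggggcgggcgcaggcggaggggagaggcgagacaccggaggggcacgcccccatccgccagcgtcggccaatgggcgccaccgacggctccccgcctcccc
Of the called testis genes, Cbln4 held the SRY/SOX core, on the other strand, far from its start site.
Cbln4, chr2:172043467-172043716, minus strand, SRY/SOX core 242 to 237 bases before the start site: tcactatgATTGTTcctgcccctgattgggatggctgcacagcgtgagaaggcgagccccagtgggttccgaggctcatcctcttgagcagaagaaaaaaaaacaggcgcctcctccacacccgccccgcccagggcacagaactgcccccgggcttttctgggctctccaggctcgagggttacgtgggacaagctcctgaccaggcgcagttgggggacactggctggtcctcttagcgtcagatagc
A match says only that these letters are there, and the libraries hold no measure of binding.

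Signalling and metabolic lists each gave fewer calls than the immediate early list. Their counts stand beside 1.09% of all genes tested called higher in XY and 1.2% called lower. In the BMP and activin list 2 of 24 genes were called lower in XY, Bmp2 and Id1. Id1, a direct target of BMP signals, had 104 and 96.7 TPM in XY and 212 and 221 TPM in XX, a difference of -1.10 ± 0.16 (limma adjusted p = 0.0059, and 0.0531 without XX replicate 1). In the Notch list 1 of 19 was called, the target Hes1, with 17.5 and 35.4 TPM in XY and 68.8 and 48.9 TPM in XX. Its call ended without either XX library, XY replicate 1 or cultured control XY replicate 1 or 2 (highest limma adjusted p = 0.239, without XX replicate 1).

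The retinoic acid list held a gene higher in XY. Crabp1, which binds retinoic acid in the cytoplasm, had 173 and 176 TPM in XY and 64.4 and 98.7 TPM in XX, a difference of 1.12 ± 0.23 (limma adjusted p = 0.0304). The call ended without XX replicate 1 (0.205) and without either XY library. The other 18 tested genes made no call, among them Cyp26b1, which breaks down retinoic acid, with 26.7 and 25.5 TPM in XY and 18.0 and 15.3 TPM in XX.

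In the steroidogenic list 2 of 12 genes were called lower in XY, and both are electron carriers. Por, which feeds microsomal P450 enzymes, had 67.8 and 57.0 TPM in XY and 105 and 95.25 TPM in XX, a difference of -0.67 ± 0.12 (limma adjusted p = 0.0181). It lost its call without XX replicate 1 (0.130) and without XY replicate 2. Fdx1, which feeds the mitochondrial ones, had 7.73 and 8.63 TPM in XY and 16.45 and 16.2 TPM in XX. Its call (limma adjusted p = 0.0426) ended without any 1 of the E11.5 and control libraries but cultured control XY replicate 3, with a highest value of 0.188 without XX replicate 1. Cyp11a1, which makes pregnenolone, had 12.1 and 6.86 TPM in XY and 17.4 and 19.7 TPM in XX (limma adjusted p = 0.197).

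Of 25 genes of the integrated stress response 4 were called lower in XY and 0 higher. Ppp1r15a, which restarts translation and is itself an early gene, had 47.9 and 49.7 TPM in XY and 111 and 99.2 TPM in XX, a difference of -1.09 ± 0.13 (limma adjusted p = 0.00129) that held with each library left out. Asns, the asparagine synthetase, had 49.0 and 63.9 TPM in XY and 125 and 99.9 TPM in XX, a difference of -0.98 ± 0.14 (limma adjusted p = 0.00594, and 0.0745 without XX replicate 1). The cystine carrier Slc7a11 had 1.55 and 1.71 TPM in XY and 6.14 and 5.49 TPM in XX. Its limma adjusted p of 0.0283 missed the threshold without any 1 of the 4 E11.5 libraries or of cultured control XY replicates 1 and 2, and was highest at 0.154 without XX replicate 1. The fourth gene, the amino acid carrier chain Slc3a2, was at the threshold (limma adjusted p = 0.0499). It lost its call with the averaging and without any E11.5 or control library but XX replicate 2 and cultured control XY replicate 3 (highest 0.255, without XX replicate 1). Atf4, the transcription factor of this response, at 177 and 174 TPM in XY and 229 and 271 TPM in XX, was not called (0.0540).

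Cell cycle and housekeeping lists gave few calls. Of 40 S phase genes and of 24 ribosomal protein genes 0 were called, with medians of -0.06 and 0.04. Of 36 mitosis genes 1 was called, securin (Pttg1), with 67.7 and 53.2 TPM in XY and 26.8 and 21.2 TPM in XX. Its call (limma adjusted p = 0.0326) ended without any 1 of the E11.5 libraries or of cultured control XY replicates 1 and 2, with a highest value of 0.129 without XX replicate 1. Of 30 collagen and matrix genes 0 were called, with a median of -0.14 and 20 genes below 0. Of 23 hypoxia response genes only Kdm3a was called, with a list median of -0.25 and 18 genes below 0.

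In the p53 target list 2 of 22 genes were called lower in XY, Btg2 and Sesn1. Sesn1, with 19.4 and 22.8 TPM in XY and 33.05 and 35.3 TPM in XX, was at the threshold (limma adjusted p = 0.0499) and lost its call without any E11.5 or control library but cultured control XY replicate 3 (highest 0.173, without XX replicate 1). In cholesterol synthesis 1 of 24 was called higher in XY, the lanosterol synthase Lss, with 10.85 and 11.3 TPM in XY and 6.95 and 6.17 TPM in XX (limma adjusted p = 0.0214). Its call ended without either XX library or XY replicate 2 (highest 0.0643, without XX replicate 2). In glycolysis 2 of 17 were called lower in XY, Hk1 and Pfkm, by -0.62 ± 0.13 and -0.69 ± 0.13 (limma adjusted p = 0.0377 and 0.0249). Both calls ended without XX replicate 1 (0.219 and 0.119) and without either XY library, that of Pfkm also without XX replicate 2, and that of Hk1 also without any of cultured control XX replicates 1 and 2 and XY replicates 1 and 2.

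On the X chromosome 4 of 14 listed genes were called lower in XY, beside 1.2% of all genes tested. They include Xist, whose call follows from the sex of the libraries. Besides Xist these were Kdm6a, Eif2s3x and Uba1, the first 2 of which are the X-linked partners of Uty and Eif2s3y and are known to escape X inactivation. Eif2s3x had 117 and 99.5 TPM in XY and 200 and 172 TPM in XX, and Kdm6a had 26.2 and 22.7 TPM in XY and 44.9 and 38.5 TPM in XX. These correspond to means 1.72 and 1.71 times higher in XX (limma adjusted p = 0.0129 and 0.0249). Both calls ended without XX replicate 1 (0.118 and 0.154) and without XY replicate 2. Uba1, which starts ubiquitin transfer, had 174 and 183.5 TPM in XY and 359 and 255 TPM in XX (limma adjusted p = 0.0202), and lost its call without XX replicate 1 (0.103) or either XY library. Over all 508 X-linked members the median difference was -0.01, with 2 called higher and 9 lower in XY.

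The 2 directions of call differed in level. The 194 genes lower in XY had a median mean level of 43.5 TPM, and 172 of them had a mean of at least 10 TPM. The 176 higher in XY had a median of 2.42 TPM, 42 with a mean of at least 10 TPM, and 84 were listed at 0 in both XX libraries. Over all members the median was 18.1 TPM. Predicted gene symbols made up 52 of the genes higher in XY and 2 of those lower. Of the 14344 members, 715 reached 1 TPM in both XY libraries and in neither XX library, and 74 the converse. Of these, 120 of the 715 and 5 of the 74 were called, beside 2.29% of all genes tested. So 120 of the 176 genes called higher in XY were members through the XY libraries alone. The number of symbols listed was also higher in XY, as given above, and its part in these calls was not tested.

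**Figure D3:**
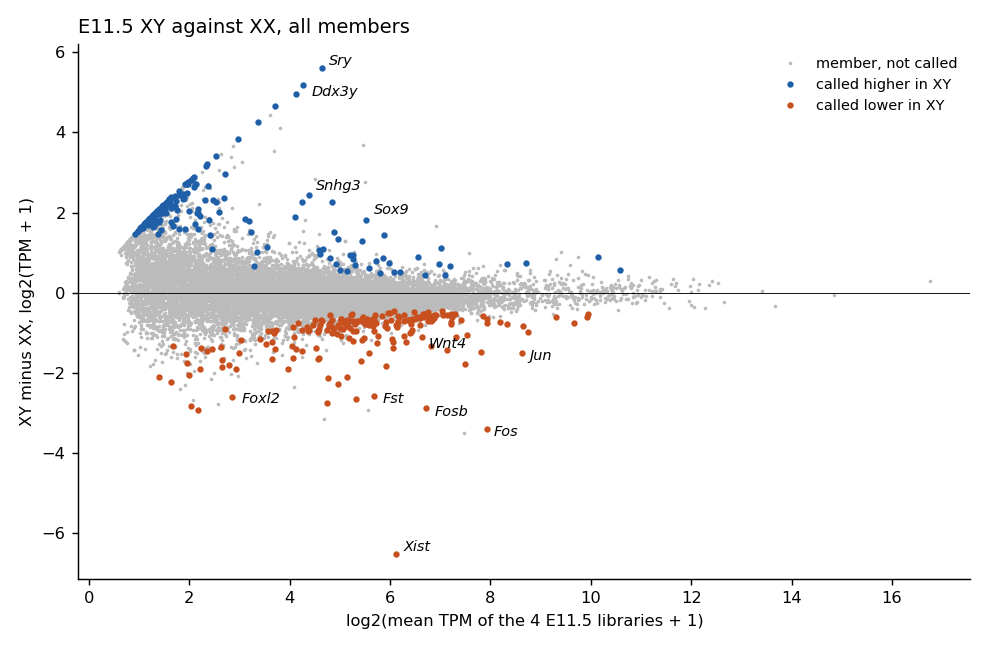
Difference between XY and XX, on log2(TPM + 1), against the level of each of the 14344 members, as log2 of the mean TPM of the 4 E11.5 libraries plus 1. Grey points were not called, blue points were called higher in XY and orange points lower. Blue points crowd at the left, along the edge set by genes near 0 in XX, and orange points lie mostly at mid and high levels.

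Of the 10 genes highest in XY by the naming rule, Snhg3 was at a mid level and the other 9 were low. Snhg3, a host gene of small nucleolar RNAs, had 33.95 and 34.3 TPM in XY and 7.49 and 4.01 TPM in XX, a difference of 2.43 ± 0.27 (limma adjusted p = 0.000654) that held with each library left out. The other 9 had at most 12.03 TPM in any XY library and at most 1.88 TPM in XX. Gtsf1l, Rtbdn, Ifna1 and Nrn1l were listed at 0 in both XX libraries, and Gpr15, Sst, Ivl and Man2c1os in 1 of them. Zfp91Cntf is a read-through of neighbouring genes and Man2c1os an antisense RNA, so their reads may be those of their neighbours. All 9 lost their call without XX replicate 1, with limma adjusted p between 0.0677 for Rtbdn and 0.239 for Ivl. Rtbdn kept it without any other E11.5 or control library. Leaving out XX replicate 2, XY replicate 1 or XY replicate 2 also ended the call of Gtsf1l, Gpr15, Ifna1, Ivl and Man2c1os. The same held for Nrn1l without XX replicate 2 or XY replicate 1, for Sst without XX replicate 2 or XY replicate 2, and for Zfp91Cntf without XY replicate 1. Some cultured control libraries also ended calls, namely XX replicates 1 and 2 for Gpr15, Ifna1 and Ivl, XY replicate 1 for these and Man2c1os, and XY replicate 2 for Gpr15, Ifna1, Man2c1os and Nrn1l.

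Among the 10 genes lowest in XY, 5 were immediate early genes and 2 were Fst and Foxl2. Dusp5, a nuclear phosphatase of ERK that ERK itself raises, had 7.90 and 10.5 TPM in XY and 42.6 and 44.0 TPM in XX, a difference of -2.13 ± 0.16 (limma adjusted p = 1.68e-05) that held with each library left out. Ifi27l2a, an interferon-stimulated gene, was listed at 0 in both XY libraries and had 9.50 and 4.45 TPM in XX (limma adjusted p = 0.00701, and 0.0839 without XX replicate 1). H2-L, a class I histocompatibility symbol whose reads can be shared with its family, was listed at 0 in XY and had 5.37 and 6.90 TPM in XX (0.0315). It lost its call without any 1 of the E11.5 libraries, with a highest limma adjusted p of 0.153 without XX replicate 1.

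The sex difference of cultured control gonads was set beside that at E11.5. The contrasts share no library. Both were tested in the same fit with the same estimate of each gene's spread, so their calls are not independent. In culture 4064 genes were called, 25.2% of those tested, with a median difference of -0.22, and 22.2% of those tested were called lower in XY. Rpph1 took 19.3, 20.3 and 15.3% of TPM in cultured control XY and 7.2 and 6.96% in cultured control XX. Its part in the culture difference was not tested. Of the 370 genes called at E11.5, 138 were called in culture with the same sign, which is 37.3% of the E11.5 calls and 3.40% of the culture calls, and 8 with the other sign. The test of the difference between the contrasts called 215 genes (1.33%).

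Sox9 was higher and Wnt4 and Fst were lower in XY cells in culture as well. Sox9 differed by 1.20 in culture and 1.82 at E11.5 (limma adjusted p of the difference = 0.166), and Wnt4 by -1.31 and -1.10 (0.553). Fst differed by -0.95 in culture and -2.56 at E11.5, a further -1.61 ± 0.36 at E11.5 (limma adjusted p = 0.0488) that passed the threshold under 6 of 20 alternatives and had a highest adjusted p of 0.163. Each E11.5 library, cultured control XX replicates 1 and 2 and cultured control XY replicates 1 and 2 ended that call when left out. Cbln4 had -0.55 in culture (limma adjusted p = 0.295) and 1.93 at E11.5, a difference of 2.48 ± 0.54 (limma adjusted p = 0.0479) that passed under 3 of 19 alternatives. It was lost without XX replicate 2, either XY library or any of cultured control XX replicates 1 and 2 and XY replicates 1 and 2, and the highest adjusted p was 0.167.

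Of 20 bipotential genes tested, 13 were called lower in cultured XY cells and 1 at E11.5, beside 22.2% and 1.2% of all genes, with medians of -0.55 and -0.15. Wt1 differed by -0.79 in culture and -0.20 at E11.5, and the difference of 0.59 ± 0.12 passed the test (limma adjusted p = 0.0460) in the main setting and under 5 of 20 alternatives. It ended when any 1 of the E11.5 libraries, of the cultured control XX libraries or of cultured control XY replicates 1 and 2 was left out, with a highest adjusted p of 0.349 over all alternatives. For Nr5a1, at -1.04 in culture and -0.26 at E11.5, it did not pass (0.0890).

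In the immediate early list 9 of 27 genes were called lower in cultured XY cells, where 22.2% of all genes were, and 18 at E11.5, where 1.2% were. The list summed to 1497, 1503 and 1154 TPM in cultured XY and 2051 and 2161 TPM in cultured XX, so all 5 cultured control libraries lay between the E11.5 XY and the E11.5 XX libraries. The test of the difference called 5 of the 27, namely Fos, Fosb, Jun, Junb and Ier2, beside 1.33% of all genes tested. In the cholesterol synthesis list it called more, 10 of 24 genes. Of those 24, 20 were called lower in cultured XY cells, with a list median of -0.70 in culture and 0.15 at E11.5. Fos was lower in XY by -1.34 in culture and -3.39 at E11.5, a difference of -2.05 ± 0.25 (limma adjusted p = 0.00423), and Fosb by -1.02 and -2.89 (0.00304). Both held under all 20 alternatives, with highest adjusted p of 0.0377 and 0.0375. Junb, Ier2 and Jun did so under 12, 9 and 6 of 20, and all 3 calls ended without XX replicate 2, XY replicate 1, cultured control XX replicate 1 or cultured control XY replicate 1 or 2. Those of Jun and Ier2 also ended without XY replicate 2 or cultured control XX replicate 2, and the highest adjusted p was 0.181 for Jun, 0.163 for Ier2 and 0.127 for Junb.

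**Figure D4:**
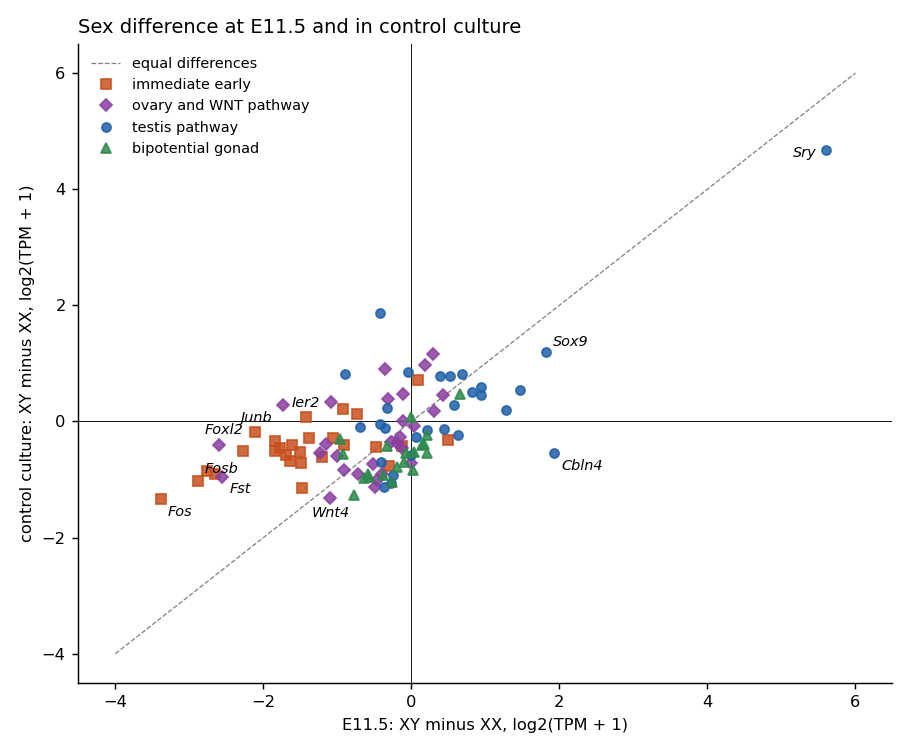
Sex difference at E11.5 (horizontal) against that in control culture (vertical), both as XY minus XX on log2(TPM + 1), for the tested genes of 4 lists. The dashed line marks equal differences. Most immediate early genes (squares) lie to the left of the line, with Fos at -3.39 and -1.34, while Ier3, Fosl2 and Ctgf lie to its right. Many bipotential genes (triangles) lie farther below 0 on the vertical axis than on the horizontal axis.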

How the data were processed

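RNA-seq of NR5A1(+) cells was deposited as 1 table of TPM per library, and the authors made these TPM values with STAR 2.7.10b, RSEM and R 4.1.2 on mm10, per the submitters' processing notes. Per the labels' protocols, a Direct-zol kit gave total RNA and the SMART-Seq Stranded Kit the libraries. Whether strand was used in counting is not stated there. As TPM is a share, each RNA that takes more of it leaves less for the rest, and no count, interval or detection floor can be had from it. Groups were taken from the titles.

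Genes with at least 1 TPM in at least 2 of the 12 libraries went into a limma fit (version 3.58.1, R 4.3.3) of log2(TPM + 1) by group, with a variance trend and Benjamini-Hochberg adjustment. A pseudocount of 1 understates changes of low genes. Positions are from GENCODE M21, and promoters from RefSeq GRCm38.p6. The members and the 29 gene lists were chosen with earlier results of these data known. Genes were named as follows: the 10 largest called differences in each direction with at least 5 TPM in a group and no overlap between the XY and XX libraries, without predicted or Y-linked symbols or Xist, the called genes of the main lists and up to 3 of each other list, a fixed set, and the 6 largest differences between E11.5 and culture in each direction. Dazl, Ddx4, Dppa3, Dppa5a, Pou5f1, Utf1, Etv5, Sp5, Tcf7, Znrf3, Nkd1, Notum, Rnf43, Lgr5, Cyp26b1, Cyp11a1, Slc3a2, Atf4 and the uncalled immediate early genes were named after their values were seen. Alternatives were other pseudocounts, filters, scalings, libraries left out, averaging of cultured XY replicates 1 and 2, a replicate block and no trend. Leaving out the Dfo libraries, of which 2 held Xist, and a filter at a mean of 5 TPM were added after seeing the data.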

Additional observations from a re-analysis of the deposited data

Results flagged for a closer look

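For 23 of the named genes the sex difference at E11.5 differed from that in control culture by limma's test of the difference itself, and each value here is the E11.5 difference minus the culture difference on log2(TPM + 1). Among immediate early genes and regulators of ERK signalling the values were -2.05 for Fos, -1.87 for Fosb, -2.0 for Dusp5, -1.92 for Junb, -1.49 for Ier2 and -0.97 for Jun, with -0.84 for the translation phosphatase subunit Ppp1r15a. Of these, Fos, Fosb and Dusp5 passed under all 20 alternatives that give the test, as did Ifi27l2a at -6.38, while Junb, Ier2, Ppp1r15a and Jun passed under 12, 9, 8 and 6 of 20. Ifi27l2a was listed at 0 in E11.5 XY and in cultured XX, and present in the other sex each time.

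Of the gonad genes, Fst had -1.61, Cbln4 2.48 and Wt1 0.59, which passed under 6 of 20, 3 of 19 and 5 of 20 alternatives. The P450 electron carrier Fdx1 had -1.32 (4 of 20), the lanosterol synthase Lss 1.34 (19 of 20) and Snhg3 2.35 (12 of 20). Of the genes farthest apart under the naming rule, Rhox9 had -3.24 (11 of 19 alternatives) and was called lower in XY at E11.5 and higher in XY in culture. Smpx had 2.94 (17 of 20) and was called the opposite way in each. The E11.5 call of Rhox9 ended without any 1 of the E11.5 libraries or of cultured control XY replicates 1 and 2. That of Smpx ended without E11.5 XX replicate 2 or E11.5 XY replicate 1. Wfdc1 at -2.97 (11 of 19), Gap43 at -2.86 (13 of 20), Lyz2 at -2.55 (7 of 20) and Nkain4 at -2.49 (4 of 20) were called higher in XY in culture, and Npbwr1 at 2.35 (6 of 19) and Dsp at 1.69 (17 of 20) lower there. None of these 6 was called at E11.5, and Sytl2 at 2.24 (3 of 20) was called in neither. Gap43 is a neuronal, Lyz2 a macrophage and Nkain4 a mesothelial marker. No value of the 23 changed sign under an alternative, and 19 lost the call under at least 1.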

How the results depend on the processing

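The count of genes called at E11.5 (370) was 0 with the 4 E11.5 libraries only, 99 without the Dfo libraries, 565 without a filter, 210 with a mean of at least 5 TPM, 88 with cultured XY replicates 1 and 2 averaged, and between 53 (without XX replicate 1) and 638 (without cultured control XY replicate 3) with 1 library left out. Of the calls, 47.6% were higher in XY, but 22.9% with the filter at 5 TPM, 69.6% without the trend, 61.8% without a filter and 36.7% with a pseudocount of 0.1. Quantile normalization gave 41.7% and median-of-ratios scaling 50.9%. The count of genes whose sex difference changed with culture (215) was 20 without the Dfo libraries, 379 with the 5 TPM filter, 34 with median-of-ratios scaling, 53 with quantile normalization, 42 without the 50 most abundant genes, 8 with averaging, 61 without the trend, and 14 to 708 with 1 library left out.

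The 18 immediate early, 6 ovary and 3 testis calls were 0, 0 and 0 with the E11.5 libraries only. Averaging left 3 ovary calls, leaving out 1 library left between 3 and 6, and the fit without trend gave 5 testis calls. Signs turned only for genes that were not called: with 1 library left out Sox8 ranged from -0.36 to 0.27, Amh from -0.18 to 0.97, Ptgds from -1.50 to 0.67, Nr0b1 from -0.12 to 0.23, Mybl1 from -0.70 to 0.05, Nr5a1 from -0.53 to 0.01 and Map3k4 from -0.12 to 0.11, and Map3k4 was 0.04 with median-of-ratios scaling and without the 50 most abundant genes and 0.09 with quantile normalization. The cause was not tested.

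Replicate numbers are not stated to pair libraries: same-numbered libraries had correlated deviations of -0.09 over 6667 genes, and the replicate block gave 391 calls, 338 of them among the 370.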

Other observations

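A set of 33 genes was called at E11.5 in the main setting and under all 20 alternatives except the fit on the 4 E11.5 libraries, and was picked after the values were seen. It holds 11 genes higher and 22 lower in XY, 28 of them autosomal, 12 of them immediate early genes and 5 Y-linked. Besides genes described above, those lower in XY were Ttyh2, Rhob, Gas6, Tkt and Litaf. Ttyh2, a membrane channel protein, had 12.2 and 11.48 TPM in XY and 32.2 and 32.25 TPM in XX. Rhob, a small GTPase that is itself rapidly induced, had 58.3 and 68.9 TPM in XY and 153 and 167.5 TPM in XX. Gas6, the ligand of the TAM receptors, had 34.1 and 26.7 TPM in XY and 85.4 and 62.9 TPM in XX. Tkt, the transketolase of the pentose phosphate path, had 306.5 and 271 TPM in XY and 639 and 503 TPM in XX.

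Those higher in XY and not described above were Gstk1, Mrpl53 and 2 predicted or unnamed transcripts. Gstk1, a glutathione transferase, had 26.3 and 25.9 TPM in XY and 7.71 and 5.10 TPM in XX. Mrpl53, a mitochondrial ribosomal protein, had 104.5 and 67.1 TPM in XY and 28.7 and 31.7 TPM in XX. In culture Mrpl53 differed by 0.25 (limma adjusted p = 0.302) and Gstk1 by 0.44 (0.209).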
